A study of Mus musculus with 9 samples.

Results

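A 20 Mb segment of mouse chromosome 10, chr10:99000000-119000000 on GRCm38, was described by its peaks of open chromatin in LSK cells. LSK cells are the lineage-negative, Sca-1-positive, Kit-positive bone marrow cells that include haematopoietic stem cells and early progenitors. Merging the peaks of all 9 libraries wherever they shared 1 bp gave 76253 regions, and the 591 regions whose midpoints lay in the segment were its members, 0.775% of all regions and 13.4% of the 4398 on chromosome 10. The segment was picked because regions higher in HOXA9_KO than in other libraries gathered there, so it was chosen by peak presence and rank in HOXA9_KO against the other groups, and every comparison that involves HOXA9_KO is a description with no test. The rest of chromosome 10, 3807 regions, served as the control.

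The groups were WT, Bcat_KO (β-catenin), HOXA9_KO (Hoxa9) and PRMT1_KO (Prmt1), each with 2 libraries, and dKO (β-catenin and Hoxa9 together) with 1 library. Sample titles write KO where the genotype tags write knockdown. The labels give no age, promoter, Cre driver or allele, so the deletions themselves were not checked here. The series text names transplanted Prmt1KO mice as a source of LSKs and leaves unsaid if cells of WT and the remaining mutants came from transplants, nor is it stated that replicate libraries were made from separate mice. P-values thus measure the spread between these libraries, which may be technical.

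In ATAC-seq the Tn5 transposase inserts adapters into accessible DNA, and a peak marks a stretch with more insertions than its surroundings. Promoters of widely used genes are usually open in many cell types, whereas open regions inside or between genes, many of them enhancers, differ more between cell types and states. The homeobox factor Hoxa9 acts in stem and early progenitor cells and binds mostly at such distal regions, β-catenin carries the canonical Wnt signal to the nucleus, and Prmt1 places most of the asymmetric dimethyl marks on arginine. The segment holds genes of blood cell biology, such as Kitl (stem cell factor, the ligand of Kit), Mdm2 (the ubiquitin ligase of p53) and the interferon gene Ifng, together with long genes best known from neurons, such as Nav3 (a microtubule-associated neuron navigator).

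Promoter sequences are shown for 5 genes whose start was open in all 9 libraries and for Ifng, whose start had no peak in any, so that the base composition of an open and a closed start of the segment can be seen side by side. They are the 250 bases before a start of the gene, 5′ to 3′ on the gene's strand, from RefSeq on GRCm38.p6. The Kitl window runs past the first base of the annotated gene, chr10:100015615, and so lies mostly inside it. Capitals mark GGGCGG (the GC box, a binding motif of Sp and KLF factors), CCAAT (the CCAAT box, a binding motif of NF-Y) and CGGAAG (a core motif of ETS factors), each searched on both strands, with overlapping matches counted separately.
Tmtc2: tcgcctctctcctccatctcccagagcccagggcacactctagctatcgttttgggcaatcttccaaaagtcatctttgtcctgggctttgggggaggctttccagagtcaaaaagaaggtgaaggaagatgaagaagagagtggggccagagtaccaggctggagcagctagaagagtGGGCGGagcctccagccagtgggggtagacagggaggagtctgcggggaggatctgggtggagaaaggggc
Mettl25: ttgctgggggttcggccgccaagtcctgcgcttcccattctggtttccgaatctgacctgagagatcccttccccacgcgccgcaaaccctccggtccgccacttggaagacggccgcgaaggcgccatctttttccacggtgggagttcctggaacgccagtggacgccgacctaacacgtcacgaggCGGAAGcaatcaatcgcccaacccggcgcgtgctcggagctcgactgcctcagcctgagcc
Kitl: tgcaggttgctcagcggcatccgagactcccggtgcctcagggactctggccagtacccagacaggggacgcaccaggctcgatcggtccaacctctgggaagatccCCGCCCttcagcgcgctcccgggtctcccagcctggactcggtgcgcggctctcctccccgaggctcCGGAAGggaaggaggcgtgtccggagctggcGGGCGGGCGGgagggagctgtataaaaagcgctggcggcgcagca
E2f7: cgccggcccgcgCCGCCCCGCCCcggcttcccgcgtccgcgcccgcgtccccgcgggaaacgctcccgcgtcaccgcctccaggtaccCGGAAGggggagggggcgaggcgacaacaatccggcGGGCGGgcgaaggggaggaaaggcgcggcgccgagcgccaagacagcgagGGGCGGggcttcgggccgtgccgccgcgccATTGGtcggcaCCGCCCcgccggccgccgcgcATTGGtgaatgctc
Mdm2: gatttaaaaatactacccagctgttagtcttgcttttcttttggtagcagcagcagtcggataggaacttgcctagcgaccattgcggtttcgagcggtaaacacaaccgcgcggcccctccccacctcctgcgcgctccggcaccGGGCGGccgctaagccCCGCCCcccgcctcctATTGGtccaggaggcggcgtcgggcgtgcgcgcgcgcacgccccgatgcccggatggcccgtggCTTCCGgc
Ifng: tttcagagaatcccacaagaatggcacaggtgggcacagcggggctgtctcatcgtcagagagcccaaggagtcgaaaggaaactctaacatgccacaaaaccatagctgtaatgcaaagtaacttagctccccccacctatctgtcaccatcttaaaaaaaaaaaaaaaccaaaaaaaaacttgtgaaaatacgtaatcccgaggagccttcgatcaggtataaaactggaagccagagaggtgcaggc
The window of E2f7, which encodes an atypical E2F repressor, lies at chr10:110745189-110745438 on the plus strand and held 45 CpG dinucleotides, 5 GC boxes, 2 CCAAT boxes and 1 ETS core. The windows of Kitl (chr10:100015571-100015820, plus strand), Mdm2 (chr10:117710759-117711008, minus strand) and Mettl25 (chr10:105841381-105841630, minus strand) held 23, 29 and 26 CpG. The window of Tmtc2 (chr10:105574480-105574729, minus strand) was open in all 9 libraries with only 4 CpG and 1 GC box. The window of Ifng (chr10:118440796-118441045, plus strand) held 6 CpG and none of the 3 motifs.

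Over the segment, open and closed starts differed in CpG, GC content, the GC box and the ETS core. CCAAT did not follow the sequences shown, where only open windows held it. RefSeq gave 300-base windows (from 250 bases before to 50 after a start) for 184 starts in the segment, among them starts of 76 of its 97 protein-coding genes. The 49 windows with a peak in all 8 libraries of the 4 paired groups had a median of 27 CpG and a GC content of 65.3%, against 4 CpG and 46.0% in the 105 windows without a peak in those 8, and 5.5 CpG and 48.5% in the 30 windows with a peak in 1 to 7 of them. A GC box was present in 71.4% of the windows open in all 8 and in 4.76% of those without a peak, beside 35.7% of all 32851 RefSeq windows. The ETS core was present in 42.9% and 5.71%, beside 16.9% of all windows, and the TATA box TATAAA in 4.08% and 21.0%, beside 13.6%. CCAAT was present in 26.5% and 38.1%, beside 37.4%. The letters TGATTTAT, a motif of Hoxa9 with its partner Pbx, were in none of the 49 open windows and in 2.86% of the closed ones, beside 0.977% of all windows.

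Across the 8 paired libraries, 128 members (21.7%) had a peak in all 8 and 216 (36.5%) in a single library, against 25.1% and 31.2% in the rest of chromosome 10. Members lay inside a gene in 230 cases (38.9%), within 50 kb of a gene in 197 (33.3%), within 1 kb of a gene end (start or end of the gene) in 110 (18.6%), and farther from any gene in 54 (9.14%). In the rest of chromosome 10 these shares were 47.3%, 24.8%, 24.5% and 3.31%. The segment thus held fewer regions at gene ends and more regions far from genes than the control. Sharing differed by position: 58 of the gene-end members (52.7%) had a peak in all 8 libraries, but 29 of those inside genes (12.6%), 36 of those near genes (18.3%) and 5 of the remaining 54 (9.26%).

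Members were spread unevenly over the 20 Mb. Single windows of 1 Mb held between 9 members (101 to 102 Mb and 114 to 115 Mb) and 73 (117 to 118 Mb, the window that holds the start of Mdm2).

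**Figure D1:**
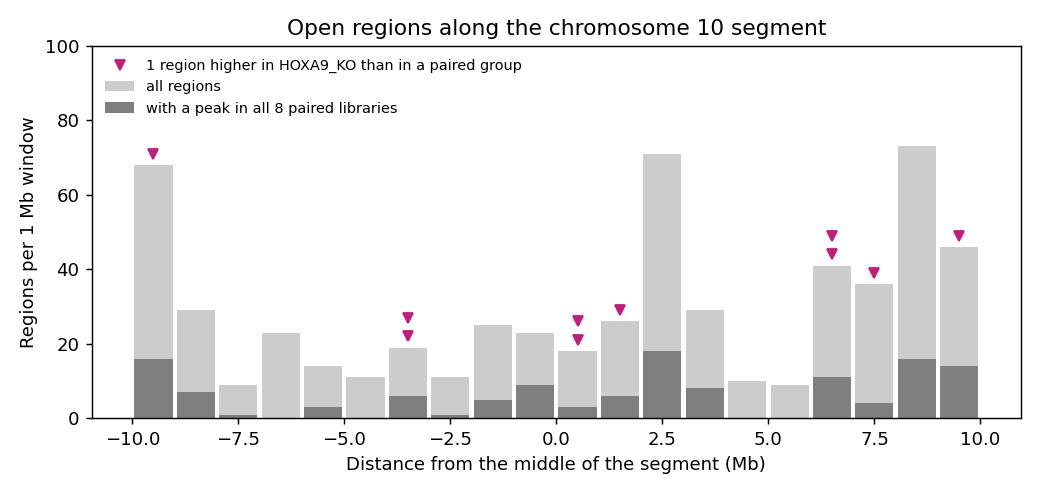
Number of merged regions per 1 Mb window along the segment (x axis, distance from its middle in Mb; y axis, regions), with the regions that had a peak in all 8 paired libraries and the 10 members higher in HOXA9_KO than in at least 1 other paired group marked. The windows hold from 9 to 73 regions, and the 10 marked members, drawn as triangles, lie in 7 of them.

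The 8 members with the best mean rank over the 8 paired lists all lay at gene ends, and all 8 also had a dKO peak. Fold enrichment, the pileup at the summit over the local background as the authors' caller gave it, was highest at the starts of Mettl25, a putative methyltransferase gene (18.9 ± 1.47, SD, n = 8), Mdm1, a centriole protein gene (18.4 ± 2.41), and Bbs10, a chaperonin-like gene of cilia (18.3 ± 1.91). Thap2, a zinc finger gene, had the best mean rank, 214, with a fold of 16.6 ± 2.02. Nap1l1, a histone chaperone gene, stood at 17.1 ± 2.6, E2f7 at 16.0 ± 1.35, Ppp1r12a, a myosin phosphatase subunit gene, at 14.7 ± 1.29, and Osbpl8, a sterol-binding protein gene, at 11.8 ± 1.58. None of these 8 was called different between any pair of groups under the rule given below.

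Of the 97 protein-coding genes, 54 had a gene-end peak in all 8 paired libraries, 32 had none in these 8, and 46 had one in the dKO. A list of 10 housekeeping genes had a gene-end peak in all 8 libraries at every member, among them Cct2, a chaperonin subunit, at folds of 10.2 ± 0.70 (WT, SD, n = 2), 10.1 ± 0.56 (Bcat_KO), 11.0 ± 0.77 (HOXA9_KO) and 11.5 ± 1.56 (PRMT1_KO). Of 18 blood and cytokine genes, 12 had a gene-end peak in all 8, Ptprb in 1, and 5 in none: Ifng and Il22, cytokines of lymphocytes, Lyz1, a lysozyme, Dyrk2, a kinase, and Rab21, a small GTPase. Ifng, Il22 and Lyz1 held 0 members. Dyrk2 held 3 members away from its ends, 2 of them with a peak in all 8, and Rab21 held 2, with 1 in all 8. Of 18 neural, muscle and signalling genes, 10 had one in all 8, 4 in some, and Mgat4c, Nts, Myf5 and Ptprq in none. Beside 54 of 97 over all coding genes, the neural list was therefore close to the whole and the housekeeping list above it.

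Folds are not normalized between libraries, and WT folds were lower in general: over the 957 regions of the rest of chromosome 10 with a peak in all 8 paired libraries, the median fold was 7.92 and 7.74 (WT) and 8.99 to 9.83 in the 6 single-mutant libraries. At the start of Kitl the fold was 6.58 and 6.96 (WT), 7.03 and 8.04 (Bcat_KO), 7.89 and 9.08 (HOXA9_KO), 7.02 and 6.16 (PRMT1_KO) and 5.21 in the dKO. The HOXA9_KO pair overlapped the Bcat_KO pair and lay above both WT and both PRMT1_KO values, and no group was called. At Mdm2 it was 10.3 and 8.91 (WT), 11.2 and 16.1 (Bcat_KO), 11.2 and 13.9 (HOXA9_KO), 11.7 and 12.3 (PRMT1_KO) and 5.70 in the dKO. Both WT values were below the 6 single-mutant values there, the direction of the general difference in fold, and the mutant pairs overlapped. Lyz2, a lysozyme of myeloid cells, had 4.68 and 3.45 (WT), 5.18 and 4.51 (Bcat_KO), 4.36 and 5.38 (HOXA9_KO) and 6.32 and 7.62 (PRMT1_KO), and no dKO peak. Both PRMT1_KO values at Lyz2 were above the other 6.

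Of the neural, muscle and signalling genes, 4 had a gene-end peak in some of the 8 libraries. Tspan8, a tetraspanin gene, had one in both WT libraries (7.13 and 5.67), in Bcat_KO 1 (5.18) and in PRMT1_KO 1 (3.84). Syt1, a synaptic vesicle calcium sensor, had one in both HOXA9_KO libraries (6.09 and 4.12) and both PRMT1_KO libraries (3.46 and 4.12), and in none of the other 4. Trhde, which encodes a peptidase, had one in both WT libraries (3.73 and 4.74), in HOXA9_KO 2 (4.34) and in PRMT1_KO 1 (3.07). Kcnc2, a potassium channel gene, had one in 6 of the 8 libraries, at folds of 3.03 to 5.17. Outside the lists, Lrriq1, a gene named after its values were seen, had stronger ones, 8.63 and 13.9 (Bcat_KO), 10.2 and 12.4 (HOXA9_KO), 6.91 in PRMT1_KO 1, 8.08 in WT 1 and 7.08 in the dKO, with none in PRMT1_KO 2 or WT 2.

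To compare groups, only the best 28325 peaks by −log10 p were kept of each of the 8 paired lists, as many as the shortest of them holds, called the equal-length list below. A region was called higher in a group when both its libraries had it within their strongest 14162 peaks and in neither equal-length list of the other group, and lower in the reverse case. Of the 591 members, 357 were in at least 1 equal-length list and 234 in none. With 2 libraries against 2, no single region can give an exact p below 0.333, so no p is given per region.

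In HOXA9_KO, the contrast that chose the segment, 8 of 327 members were called higher than in WT, 2.45%, where the call was made for 0.508% of all regions tested and 0.334% in the rest of chromosome 10. In the other direction 1 member was lower, 0.306%, beside 0.182% of all regions and 0.0477% in the rest of the chromosome. Against PRMT1_KO, 8 of 289 members were higher (2.77%, against 0.298% of all and 0.295% in the rest of chromosome 10) and 0 were lower (0.377% of all and 0.443% in the rest). Against Bcat_KO, 2 of 273 were higher (0.733%, against 0.125% of all and 0.151% in the rest) and 1 was lower (0.366%, against 0.117% of all and 0.0503% in the rest). Against all 6 other paired libraries at once, 2 of 357 were higher (0.56%, against 0.047% of all and 0.0416% in the rest) and 0 were lower (0.0192% of all and 0% in the rest). The 3 comparisons share the HOXA9_KO libraries and, in all, 10 different members were called higher in at least 1 of them.

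Background depth, inferred from the lists, was 8.27 and 8.67 reads per kb (HOXA9_KO), 7.38 and 6.29 (WT), 9.61 and 9.82 (Bcat_KO), 11.2 and 10.9 (PRMT1_KO), and 2.41 in the dKO. HOXA9_KO was thus deeper than WT and the dKO and shallower than Bcat_KO and PRMT1_KO. A missing peak means only that none was detectable at the depth of that library. On chromosome Y, outside its distal end, WT had 0 peaks in both libraries and the single mutants 12 to 16. The part of these differences in the calls was not tested.

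The 8 members higher in HOXA9_KO than in WT were spread over all 4 windows of 5 Mb in the segment, with 1, 1, 2 and 4. None of the other 22 windows of chromosome 10 held more than 1, and 15 held none. The count varied with how strong a peak had to be. With the high side narrowed to the strongest 7081 peaks, 0 of 327 members were higher than in WT, beside 0.0243% of all regions and 0% in the rest of the chromosome. When a region only had to be in both equal-length lists of HOXA9_KO and in none of the other 6, 6 members qualified, 1.68% against 1.5% of all regions and 1.5% in the rest of the chromosome. With whole lists as deposited and presence alone, which changes list length and strength rule together, 42 members were higher than in WT, 9.15% against 8.78% of all regions and 8.34% in the rest. By presence alone the share of members was thus near the background.

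**Figure D2:**
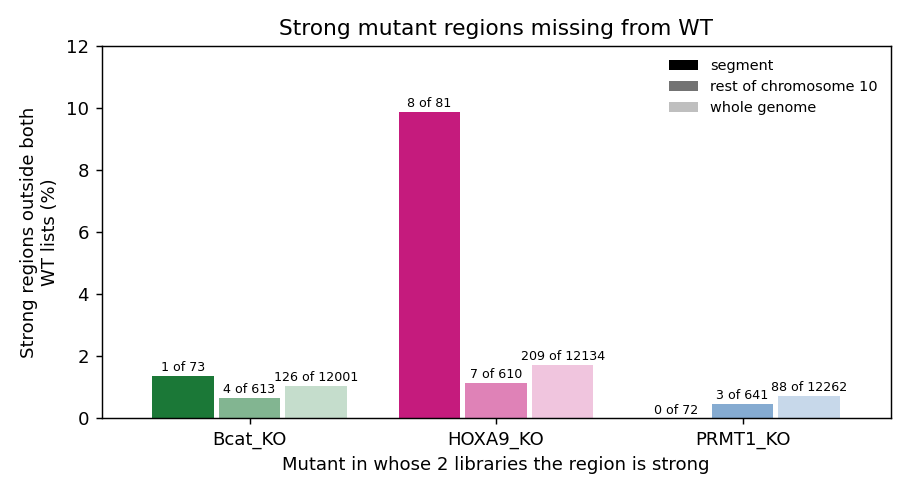
Share of regions strong in both libraries of a mutant that were outside both equal-length WT lists (y axis, percent; x axis, mutant), for the segment, the rest of chromosome 10 and the whole genome, with counts above the bars. HOXA9_KO had 8 of 81 in the segment and 7 of 610 in the rest of the chromosome, while Bcat_KO had 1 of 73 and PRMT1_KO 0 of 72 in the segment.

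Of 81 members strong in both HOXA9_KO libraries, 8 (9.88%) were outside both WT lists, against 1.15% in the rest of chromosome 10 and 1.72% over all regions. Those inside genes accounted for 4 of 19 (21.1%, against 4.26% in the rest of the chromosome) and those near genes for 3 of 15 (20%, against 1.43%), while the 45 at gene ends gave 1 (2.22%, against 0 of 388). Of the 10 members higher in HOXA9_KO than in at least 1 paired group, 6 lay inside genes, 3 near genes and 1 at the end of a long noncoding RNA gene. Beside this, 18.6% of all members and 45 of the 81 strong ones lay at gene ends.

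Nav3 carried 3 of the 10. The region chr10:109924224-109924627 inside Nav3 had folds of 12.5 and 11.2 (HOXA9_KO), at summits of 46 and 36 reads, and 6.68 and 10.1 (Bcat_KO), and no peak in WT, PRMT1_KO or the dKO. It was the strongest of the 10 by mean rank in HOXA9_KO, at 4860 and 7580, and both of its HOXA9_KO folds were above both Bcat_KO folds. Another Nav3 region, chr10:110155464-110156028, had 11.9 and 11.7 (HOXA9_KO), 10.3 in Bcat_KO 2, 4.61 and 4.94 (PRMT1_KO) and 5.67 in the dKO, with no peak in WT or Bcat_KO 1. The remaining one, chr10:109746608-109747345, had 13.1 and 11.7 (HOXA9_KO), 8.05 in Bcat_KO 2, 3.83 and 7.38 (WT) and 4.22 in PRMT1_KO 1, and was called higher against PRMT1_KO alone.

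The gene, chr10:109681260-110455722, held 16 members, 2 of them with a peak in all 8 paired libraries. At its start the fold was 10.2 and 10.3 (WT), 9.19 and 12.9 (Bcat_KO), 14.0 and 12.9 (HOXA9_KO), 10.8 and 12.2 (PRMT1_KO) and 8.10 in the dKO. The Bcat_KO pair spanned the WT and PRMT1_KO values at the start. The inner region in all 8, chr10:109985845-109986862, had 4.90 and 3.74 (WT), 9.93 and 11.8 (Bcat_KO), 15 and 8.19 (HOXA9_KO), 10.5 and 6.59 (PRMT1_KO) and 7.92 in the dKO. Both WT values were below all 6 single-mutant values at that inner region, again the direction of the lower WT median fold (7.92 and 7.74 against 8.99 to 9.83), and the mutant pairs overlapped each other. In the equal-length lists, Nav3 had 7 and 7 regions (HOXA9_KO), 5 and 4 (WT), 4 and 6 (Bcat_KO) and 3 and 2 (PRMT1_KO). These counts include the called members and are partly set by the choice of the segment.

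Tmtc2, which encodes an endoplasmic reticulum protein of the O-mannosyltransferase family, held 10 members, 3 of them in all 8 paired libraries. The called one, chr10:105523407-105523975 inside the gene, had 11.8 and 11.9 (HOXA9_KO), 6.04 and 7.60 (Bcat_KO), 4.43 in WT 2 and 4.99 in PRMT1_KO 1, and no peak in WT 1, PRMT1_KO 2 or the dKO. It was higher than in PRMT1_KO by the rule and not than in WT, since WT 2 listed it. The start of Tmtc2, whose sequence is printed above, had 8.79 and 10.9 (WT), 12.2 and 12.5 (Bcat_KO), 11.2 and 12.3 (HOXA9_KO), 10.1 and 13.1 (PRMT1_KO) and 7.77 in the dKO. Both WT values were below the Bcat_KO and HOXA9_KO values at the start, and the PRMT1_KO pair spanned those, beside the lower median fold of WT in general. At the far end of Tmtc2, chr10:105186477-105187266 had 11.2 and 11.6 (WT), 14.8 and 14.9 (Bcat_KO), 13.6 and 17.8 (HOXA9_KO), 16.2 and 18.3 (PRMT1_KO) and 5.34 in the dKO, with both WT values below the 6 of the single mutants, as the WT median fold was over shared regions. Near the far end of Mettl25, 2.39 kb from it, chr10:105760156-105760792 had 11.0 and 10.3 (HOXA9_KO) and 5.18 in Bcat_KO 1, and no peak in the other 6 libraries. The start of Mettl25 is among the 8 strongest members named above.

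Lgr5, the receptor of R-spondins and a marker of stem cells in several epithelia, held 10 members and 2 of the called ones. The first, chr10:115465699-115466353, had 8.98 and 9.12 (HOXA9_KO), 5.88 and 5.81 (Bcat_KO), 5.38 in PRMT1_KO 1 and 4.48 in the dKO. The second, chr10:115518568-115519373, had 8.44 and 8.93 (HOXA9_KO) and 4.32 in Bcat_KO 1, and no other peak, and it was one of the 2 members called higher than in all 6 other paired libraries. The start of Lgr5 was weak everywhere: 6.01 and 3.59 (WT), 4.78 and 5.58 (Bcat_KO), 5.69 and 5.37 (HOXA9_KO), 5.83 and 4.63 (PRMT1_KO) and 4.74 in the dKO. All groups overlapped at the start.

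The other member called higher than in all 6 lay 16.0 kb from the noncoding RNA gene Gm35437 and 73.6 kb from Kitl, at chr10:99941544-99942033. It had 11.2 and 9.0 (HOXA9_KO), 5.36 in Bcat_KO 2, 3.84 in PRMT1_KO 1 and 6.16 in the dKO, and no WT peak. At the end of the noncoding RNA gene 4930579P08Rik, chr10:116738552-116739120 had 8.51 and 9.88 (HOXA9_KO), 4.97 and 7.38 (Bcat_KO), 4.12 in WT 1 and 6.14 in PRMT1_KO 1, and the WT 1 peak was too weak for the equal-length list. The last, chr10:118370542-118370815, lay 16.4 kb from the pseudogene Gm9049 and 70.2 kb from Ifng. It had 8.83 and 10.0 (HOXA9_KO), 8.20 and 10.3 (Bcat_KO) and 8.06 and 10.7 (PRMT1_KO), and no peak in WT or the dKO, so all 3 single mutants overlapped there and WT alone of the paired groups lacked it.

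Over the 10 members, HOXA9_KO summits held 19 to 46 reads. They were selected for high rank in HOXA9_KO, so high folds there are fixed by the choice. A Bcat_KO peak was present at 10 of 10, a PRMT1_KO peak at 7, a WT peak at 3 and a dKO peak at 3. The counts of the paired groups are shaped by the choice too, as 8 members were called against WT, 8 against PRMT1_KO and 2 against Bcat_KO. They thus show no likeness between Bcat_KO and HOXA9_KO.

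**Figure D3:**
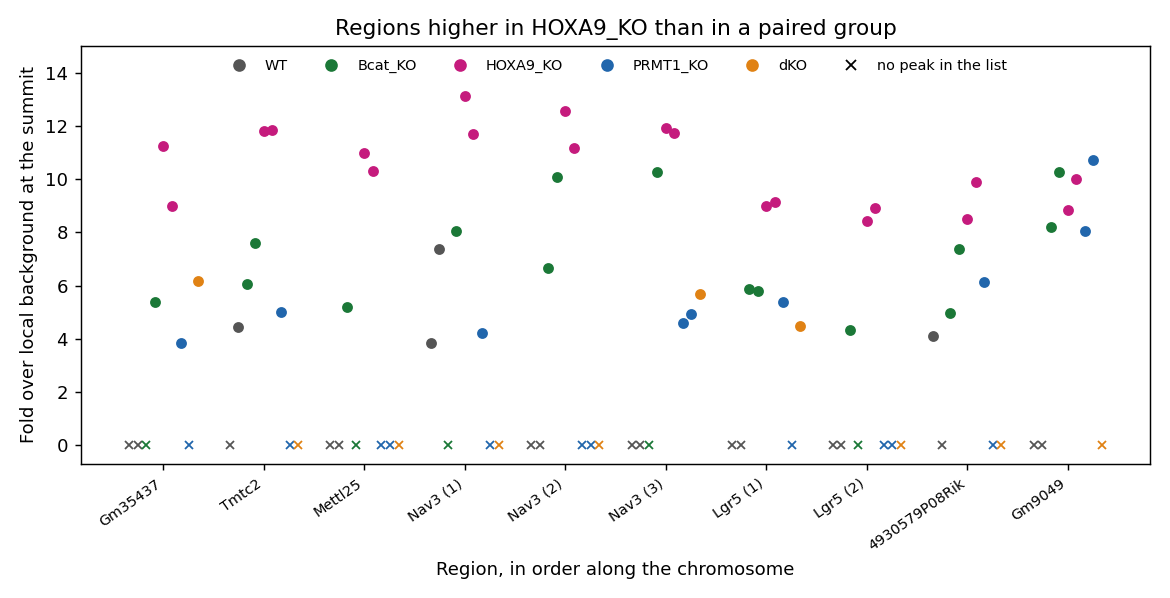
Fold enrichment (y axis, pileup over local background) in each library at the 10 members higher in HOXA9_KO than in at least 1 paired group (x axis, by gene), with points coloured by group and crosses at the bottom for libraries without a peak. The HOXA9_KO points lie between 8.44 and 13.1, as the choice of the members requires strong peaks there.

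By list, the 79 members at the neural, muscle and signalling genes included 4 called higher in HOXA9_KO than in WT, 6 than in PRMT1_KO and 1 than in Bcat_KO, all of them at Nav3, Tmtc2 or Lgr5, where the calls were made for 0.508%, 0.298% and 0.125% of all regions. The 56 members at blood and cytokine genes and the 34 at housekeeping genes included 0 in any comparison. The lists were drawn up with these calls known, so their counts are a description, and at those shares of all regions 0 calls in lists of this size show no difference between lists.

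**Figure D4:**
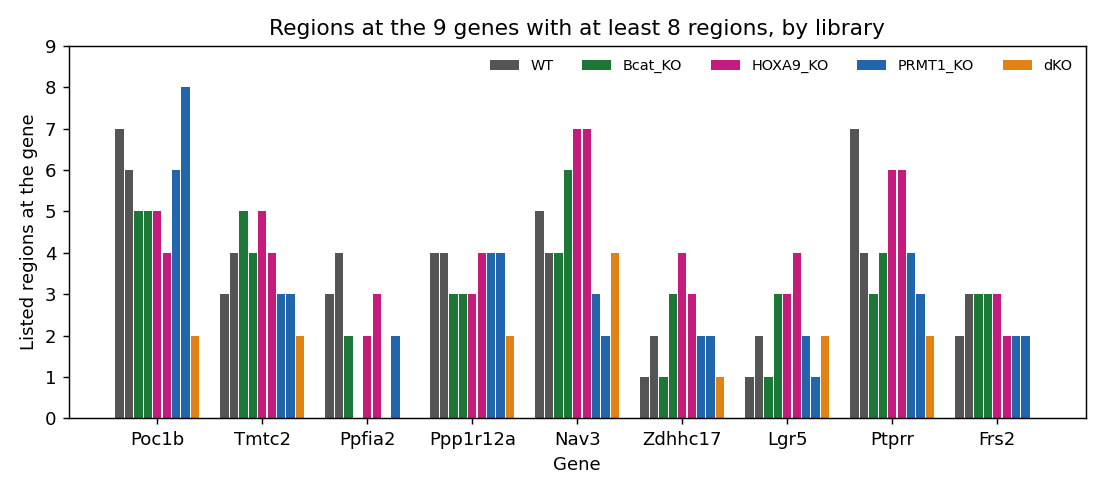
Number of members in the equal-length list of each library (y axis) at the 9 genes with at least 8 members (x axis), with 1 bar per library in the order of the legend and the whole, shorter dKO list as the last bar. Nav3 shows 7 in both HOXA9_KO libraries and 2 to 6 in the other paired libraries, while Ptprr, a receptor phosphatase gene, reaches 7 in WT 1 and 6 in both HOXA9_KO libraries. The Nav3 counts include called members and are partly set by the choice of the segment.

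Comparisons that did not involve HOXA9_KO gave few members, although the low values of these libraries had also entered the choice of the segment. In Bcat_KO against WT, 1 of 307 members was higher (0.326%, against 0.311% of all regions and 0.19% in the rest of chromosome 10) and 1 was lower (0.326%, against 0.0961% of all and 0.0475% in the rest). In PRMT1_KO against WT, 0 of 302 members were higher (0.219% of all and 0.146% in the rest) and 1 was lower (0.331%, against 0.0823% of all and 0.0487% in the rest). Between Bcat_KO and PRMT1_KO, 0 of 258 members were called in either direction (0.0559% of all regions higher in Bcat_KO and 0.0293% lower, and 0% in the rest). A count of 0 or 1 in these members cannot be told from the background shares.

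The few members called outside the HOXA9_KO-higher set all lay away from gene ends. At 49.7 kb from Nap1l1, chr10:111422594-111423198 had 8.66 and 9.80 (Bcat_KO), 8.10 and 8.81 (HOXA9_KO) and 7.71 and 6.69 (PRMT1_KO), and no peak in WT or the dKO. It was called higher in Bcat_KO than in WT, and all 6 single-mutant libraries listed it. Inside Otogl, a gene of inner ear membranes, chr10:107799938-107800419 had 7.59 and 7.38 (WT), 7.25 in HOXA9_KO 2 and 9.22 in PRMT1_KO 1, and no peak in Bcat_KO, where it was called lower than in WT. Near the gene Gm4312, chr10:100402353-100402694 had 7.66 and 8.26 (WT), 5.38 in PRMT1_KO 1, 5.81 in Bcat_KO 2 and 4.55 in HOXA9_KO 2, and was called lower in PRMT1_KO and in HOXA9_KO than in WT. A second region inside Otogl, chr10:107868858-107869296, had 9.12 and 8.27 (Bcat_KO), 6.01 and 5.16 (WT), 7.01 and 5.95 (PRMT1_KO) and 4.20 in HOXA9_KO 2, and was called lower in HOXA9_KO than in Bcat_KO.

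By presence alone in the equal-length lists, 8 members were in both WT lists and in none of the 6 mutant lists, 2.24% against 1.23% of all regions. The same pattern for a mutant held for 3 members in PRMT1_KO (0.84%, against 0.792% of all) and for 0 in Bcat_KO (0.421% of all). Members missing from 1 group alone numbered 3 for WT (0.84%, against 1.08% of all regions), 3 for HOXA9_KO (0.84%, against 0.713%), 1 for Bcat_KO (0.28%, against 0.205%) and 0 for PRMT1_KO (0.25% of all).

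The share of chromosome 10 peaks that fell in the segment asked whether the whole segment, and not single regions, differed between groups. In the equal-length lists it was 13.4% and 12.7% (WT), 11.2% and 11.3% (Bcat_KO), 12.6% and 12.4% (HOXA9_KO) and 11.1% and 11.8% (PRMT1_KO). WT stood highest, 1.66 percentage points above the mean of Bcat_KO and PRMT1_KO. HOXA9_KO was left out of the test because its high values chose the segment. Over the 3 remaining groups the exact permutation test gave p = 0.2, where the 15 divisions of the 6 libraries into pairs allow no p below 0.0667. The low values of these 6 libraries had also entered the choice of the segment, so the test is not independent of it. Neither this test nor that of the strongest 14162 peaks can thus decide if the shares differ. Among the strongest 14162 peaks the shares were 11.6% and 11.8% (WT), 10.6% and 11.9% (Bcat_KO), 12.8% and 12.2% (HOXA9_KO) and 10.3% and 10.7% (PRMT1_KO) (exact permutation p = 0.4 without HOXA9_KO). WT was highest in the longer lists and HOXA9_KO among the strongest 14162 peaks, where high rank in HOXA9_KO had chosen the segment. In lists cut to the dKO's 10639 peaks the shares were 10.8% and 10.8% (WT), 10.3% and 11.8% (Bcat_KO), 10.4% and 11.8% (HOXA9_KO) and 10.1% and 10.7% (PRMT1_KO). There the HOXA9_KO and Bcat_KO pairs both spanned the WT values.

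**Figure D5:**
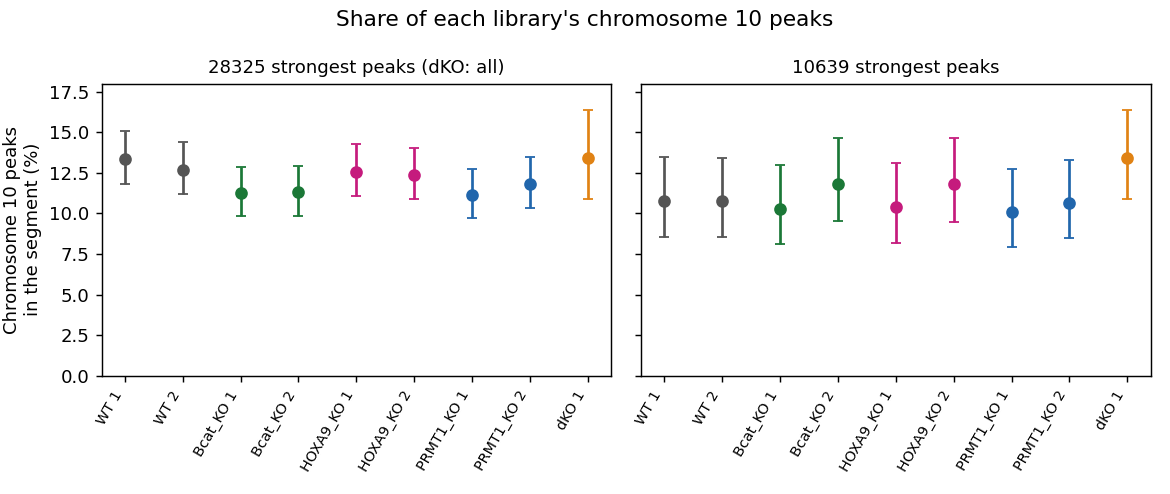
Share of the chromosome 10 peaks of each library that lay in the segment (y axis, percent), in equal-length lists and in lists of the dKO's length, by group, with 95% Wilson intervals that cover counting error only. The 8 paired libraries lie between 11.1% and 13.4% in the equal-length lists, with intervals that overlap.

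In the dKO, whose library the rule did not use as a contrast, 80 of 597 chromosome 10 peaks lay in the segment, 13.4% (95% Wilson interval 10.9% to 16.4%, counting error only). The paired lists, shortened to the dKO's 10639 peaks, gave 10.1% to 11.8%, with Wilson intervals that all overlap that of the dKO. The dKO had a peak at 77 members, of which 45 were at gene ends and 5 had no peak in any paired library. At the 8 members higher in HOXA9_KO than in WT it had 3, namely those at Nav3, Lgr5 and Gm35437 (37.5%, 13.7% to 69.4%). Of such regions it had 2 of 7 in the rest of chromosome 10 (28.6%) and 40 of 209 over all (19.1%), both within that interval. Among all strong HOXA9_KO members away from gene ends it had 14 of 36 (38.9%, 24.8% to 55.1%), against 89 of 222 in the rest of chromosome 10 (40.1%).

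At the same list length, Nav3 held 4 regions in the dKO, 5 and 4 (HOXA9_KO), 1 and 3 (Bcat_KO), 1 and 1 (PRMT1_KO) and 1 and 1 (WT). Nav3 carries 3 of the members called higher in HOXA9_KO, so the counts of the paired groups are partly set by the choice of the segment. They are no support for a likeness of the dKO and HOXA9_KO. The 4 dKO regions were the start (8.10), both inner regions with a dKO peak given above (7.92 and 5.67), and chr10:109684277-109685033 near the far end of the gene (4.88). At Lgr5, and equally at Ptprr, the dKO held 2 regions at that length and the 8 paired libraries none. At Lin7a, Myf6, Syt1, Kcnc2 and Trhde, among other genes, the dKO held 1 and the 8 none. That length takes in the whole dKO list with its weakest peaks, but only the strongest peaks of each paired list. The start of Lgr5, 1 of its 2 dKO regions, had a weak peak in every library. The dKO is 1 library of low depth, and its peak names follow another naming of the run, so run, depth and genotype cannot be told apart.

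Peaks shared by the 8 paired libraries were used to compare signal over the whole segment. Over regions with a peak in all 8 paired libraries, the median number of summit reads in the segment (128 members) divided by that in the rest of chromosome 10 (957 regions) was 0.781 and 0.806 (HOXA9_KO), 0.889 and 0.881 (WT), 0.800 and 0.871 (Bcat_KO) and 0.846 and 0.848 (PRMT1_KO). The same ratio of the local background was 0.757 and 0.812 (HOXA9_KO) and 0.883 and 0.854 (WT), 0.749 and 0.798 (Bcat_KO) and 0.809 and 0.814 (PRMT1_KO). All 6 single-mutant libraries were below both WT libraries on both ratios, so this was no trait of HOXA9_KO alone, and the HOXA9_KO pair overlapped Bcat_KO. In the dKO the ratios were 1.06 for summit reads and 1.04 for background. They rest on fewer regions, 58 in the segment and 414 in the rest, in 1 library of low depth. The ratio of the median fold did not separate HOXA9_KO from WT, at 0.961 and 0.916 (HOXA9_KO) and 0.911 and 0.917 (WT). Nor did that of the median rank, at 1.29 and 1.17 (HOXA9_KO) and 1.19 and 1.17 (WT).

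Peaks at marker genes were checked against the label LSK. Gene-end peaks were present at 6 to 9 of 10 stem and progenitor markers in the 8 paired libraries, with Ly6a (Sca-1) missing in all, and at 3 of 10 in the dKO. Mature myeloid markers had 0 to 3 of 6 (Elane and Ly6g in none), T and NK markers 0 to 2 of 5 (Cd3e, Cd3g and Ncr1 in none), stromal or endothelial markers 2 to 4 of 5 (Cdh5 in none) and erythroid markers 3 of 4. In HOXA9_KO the mature myeloid list had 0 of 6 in both libraries, against 3 and 0 (WT), 1 and 2 (Bcat_KO) and 3 and 2 (PRMT1_KO). Its part in the results was not tested.

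At the limits of the segment the members were ordinary weak peaks. The first member inside, chr10:99081633-99082102 near Poc1b, had a peak in 5 libraries at folds from 3.45 upward, and the last region before it, chr10:98995279-98995476 inside Atp2b1, in PRMT1_KO 2 alone (4.12). The last member, chr10:118954106-118954243, had a peak in HOXA9_KO 2 alone (5.92), and the first region beyond it, chr10:119028884-119029048, in PRMT1_KO 2 alone (4.31).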

How the data were processed

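ATAC-seq peak lists of 9 libraries of mouse LSK cells were used, from 50000 cells each per the labels. Per the submitters' processing notes, the authors used Bowtie2 2.4.2, GRCm38/mm10, SAMtools 1.14, Picard 2.27.4 and MACS2, and by the peak names they filtered out duplicates and unmapped reads. The deposited lists, 1 per library, give a score and, at each summit, a fold enrichment over local background that is the authors' ratio, −log10 p-values and −log10 q-values, and the summit offset. These are the authors' values and are not normalized between libraries, so they were used to describe peaks and to rank them within a list. Lists held 28325 to 45460 peaks in the paired groups and 10639 in the dKO.

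Here peaks were merged, ranked, placed by RefSeq genes (GRCm38.p6) and counted with Python 3.11.15, pandas 2.3.3, numpy 2.4.6 and scipy 1.17.1. Summit reads were recovered from fold and p, with whole reads giving p within 0.1%, for at least 99.87% of peaks. Intervals are 95% Wilson intervals and cover counting error only. Calling was tested on simulated data. The members, gene lists and naming rule were chosen with earlier results of these data known. Named were the members called in any comparison, the 8 with the best mean rank, those at the limits and genes of the lists. Alternatives were whole lists, ranking by fold, a stricter strong side, a q threshold, merging by summits, other limits and leaving out each library. Sequences of distal regions were not analysed here. One marker list is not reported here.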

Additional observations from a re-analysis of the deposited data

How the results depend on the processing

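Counts of called members depended on the list and the threshold. With lists as deposited and presence alone, members higher in HOXA9_KO than in WT numbered 42 (9.15%, against 8.78% of all regions) and lower 9, higher than in the other 6 libraries 9 and lower 1. The same setting gave 40 higher and 9 lower in Bcat_KO than in WT, 29 and 8 in PRMT1_KO than in WT, and 17 and 7 in Bcat_KO than in PRMT1_KO. At this and the following settings, shares over all regions were computed only for members higher in HOXA9_KO than in WT. The other counts have no such background and show no trait of the segment. With the high side narrowed to the strongest 7081 peaks, 0 members were called higher or lower in HOXA9_KO than in WT, higher than in the other 6, higher or lower in Bcat_KO than in WT, or lower in PRMT1_KO than in WT (0.0243% of all regions were higher in HOXA9_KO than in WT). With −log10 q of at least 5, 4 members were higher in HOXA9_KO than in WT (2.03%, against 0.361% of all regions), 1 than in the other 6, and 0 were lower in HOXA9_KO, higher or lower in Bcat_KO, or lower in PRMT1_KO than in WT. Ranking by fold gave 2 higher and 2 lower in Bcat_KO and 0 lower in PRMT1_KO than in WT, and 11 higher in HOXA9_KO (3.24%, against 0.714% of all regions). Merging by summits gave 3 higher in Bcat_KO and 2 higher in PRMT1_KO than in WT, and 10 in HOXA9_KO (2.86%, against 0.611% of all regions). The causes were not tested.

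Leaving out 1 library at a time gave 9 to 12 members higher and 1 to 2 lower in HOXA9_KO than in WT, 1 to 5 higher and 2 to 3 lower in Bcat_KO, 0 to 2 higher and 1 to 3 lower in PRMT1_KO, and 0 to 2 higher in Bcat_KO than in PRMT1_KO. The 5 came without Bcat_KO replicate 1. Shares over all regions were not computed with a library left out, so these counts show only how far the counts of members moved. Leaving out a library loosens the rule at unchanged list lengths, so a count could only stay or rise. These runs could not show the loss of a call. The difference in share between WT and the mean of Bcat_KO and PRMT1_KO kept its sign in all 11 alternatives, from 0.768 to 2.14 points. The dKO share was 6.70% with the limits narrowed by 5 Mb at each end and 20.4% with them widened, as a shorter or longer segment holds fewer or more peaks. No paired analysis was possible because the counts come from no fitted test per region, and the labels tie equal replicate numbers to no shared animal or batch. Depth limits what an absent peak can show, most of all in the dKO.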
